A study of Mus musculus with 6 samples.

Results

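The simple epithelial keratins Krt7, Krt8, Krt18, Krt19, Krt20 and Krt23 were followed across 6 two-colour arrays of adult mouse esophagus RNA. Every non-control probe that carries one of these 6 gene names in the scanner files was taken, whatever its value, which gave 6 genes of 28104 and 8 probes of 41174 on the array, 2 each for Krt7 and Krt8 and 1 for each other gene. All 8 probes were well above background in both channels on all 6 arrays, and all 8 were among the 30505 probes tested. None of the 8 passed the test between the arrays labelled Pax9 knockout and those labelled wild type. Krt7, Krt8, Krt18 and Krt19 each had 1 probe that read lower on every array labelled knockout than on any array labelled wild type. The second probes of Krt7 and Krt8 did not show this, and the Krt8 probes differed from each other in how they moved.

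Keratins are the intermediate filament proteins of epithelia, and each filament is built from pairs of a type I and a type II chain. Krt8 (type II) and Krt18 (type I) form the pair of single-layered epithelia such as liver and gut, with Krt7 as a further type II chain and Krt19 and Krt20 as further type I chains of ducts, glands and intestinal lining. The stratified squamous lining of the esophagus builds its filaments instead from Krt5 and Krt14 in the basal layer and Krt4 and Krt13 above it. Columnar cells that carry simple keratins appear in the esophagus when the squamous lining is replaced, as in Barrett's metaplasia. Krt23 is a type I keratin first found in pancreatic cells, and its role is less well known.

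Each group had 3 arrays, called biological replicates in the labels. Whether each came from its own mouse is not stated, so a p-value covers the spread between these samples only, which may be technical in part. The mice were adults on the C57BL/6J background, either WT or K5Cre;Pax9 loxp/loxp, in which the keratin 5 promoter drives Cre recombinase in basal cells of stratified epithelia and Cre acts on a floxed Pax9, a paired-box transcription factor gene. The RNA was extracted from esophageal tissue and is labelled as epithelium. It was dyed with Cy5 and set on every array against Cy3-dyed Universal Mouse Reference RNA from 11 cultured mouse cell lines, with no dye swap. A log2 ratio here is esophagus over that reference, and a difference is the mean of the arrays labelled knockout minus the mean of those labelled wild type.

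The Pax9 probe read 0.73 higher on the arrays labelled knockout (SE 0.18, limma adjusted p = 0.0715). With normalized Cy5 alone it read 1.22 higher (limma adjusted p = 0.00557, where 29.3% of all tested probes passed). Its Cy5 signals were 4409 to 8915 on the arrays labelled wild type and 17209 to 19081 on those labelled knockout. Which exons are floxed is not in the labels, and a probe outside them would check nothing, so groups are called by their labels. Slide 1 with scan 1 held the whole group labelled wild type and slide 2 with scan 2 the whole group labelled knockout, so an effect of slide or scan and one of genotype cannot be told apart. All 8 squamous esophagus markers, among them Krt4, Krt13, Krt5 and Krt14, were well above background on all 6 arrays, and so were all 9 skeletal muscle markers. Summed Cy5 signals of those muscle markers were 29700 to 332000 on the arrays labelled wild type and 174000 to 1670000 on those labelled knockout. Of their 9 differences 8 were above 0, with a median of 1.13, beside 0.014 over all genes. Only Myh2 passed, higher by 1.63 (limma adjusted p = 0.0402), where 4.84% of all genes passed. The part of muscle RNA in the keratin values was not tested. In such bulk RNA, fewer cells of a type and less RNA per cell cannot be told apart.

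The probes are 60 bases long, and where they lie on the transcript matters for the results, since the probes of 1 gene did not move alike. Both Krt8 probes lie near the end of the transcript on the minus strand of chromosome 15, at chr15:101827346-101827405 and chr15:101827214-101827273 (mm9), with 72 bases between them. The first spans the stop codon, in capitals below, and the second lies 3′ of it, with its first 30 bases shown. The Krt18 probe at chr15:101862341-101862400 (plus strand) also spans the stop codon, in capitals. Of the Krt7 probes, one at chr15:101253718-101253777 lies within the coding sequence, judged from its open reading frame. The other, at chr15:101258172-101258231, ends at the 3′ end of the transcript, with a polyadenylation signal in capitals in its last 30 bases. The Krt19 probe at chr11:100002392-100002451 (minus strand) is read as coding in the same way. An open frame does not settle this, since the Krt7 3′ end probe also has 1 and the Krt8 probe 3′ of the stop has 2. For Krt7 and Krt19, coding is therefore a presumed position. No exon annotation of mm9 was used.
Krt8, stop codon probe: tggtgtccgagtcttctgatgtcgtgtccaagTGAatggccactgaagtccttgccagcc
Krt8, probe 3′ of the stop: ccgaggatcagccctaatcctctggccaac
Krt18: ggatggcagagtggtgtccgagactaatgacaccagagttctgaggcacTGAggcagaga
Krt7, coding probe: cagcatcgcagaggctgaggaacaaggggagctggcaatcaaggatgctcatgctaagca
Krt7, 3′ end probe: tAATAAAgggcctctctgagagagctgcat
Krt19: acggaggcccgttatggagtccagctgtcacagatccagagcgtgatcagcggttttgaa

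The remaining probes lie on the minus strand of chromosome 11, that of Krt20 at chr11:99289776-99289835 and that of Krt23 at chr11:99339393-99339452. Krt8 and Krt18 are neighbours on chromosome 15, with 2 noncoding genes and 0 coding genes between them in the RefSeq table of assembly GRCm38.p6. The files list 2 further predicted transcripts for each Krt8 probe, and the RefSeq table holds a Krt8 pseudogene, so signal from near-identical copies cannot be told apart from that of Krt8.

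The keratins of simple epithelia stood far below the cell line reference in esophagus RNA, apart from Krt23. On the arrays labelled wild type the mean log2 ratio was -4.52 ± 0.41 and -4.24 ± 0.38 (SD, n = 3) for the stop codon probe and the 3′ probe of Krt8, and only 0.0656% and 0.105% of tested probes had a lower one. Next in order, Krt20 read -3.79 ± 0.59, Krt18 -3.74 ± 0.43 and Krt19 -3.70 ± 0.30 (SD, n = 3), with 0.226%, 0.246% and 0.272% of tested probes below them. Krt7 was nearer to the reference, at -2.03 ± 0.46 for the 3′ end probe and -1.95 ± 0.48 for the coding probe (SD, n = 3). Krt23 lay at the other end, at 7.03 ± 0.61 (SD, n = 3), above 99.8% of tested probes. From Krt8 to Krt19, the gap between neighbours in this order was smaller than the larger of their SDs. A ratio depends on the reference as well as on the esophagus, so the order is one of ratios and not of RNA levels. Background correction added an offset of 50 to both channels, which brings the ratio of a dim probe nearer to the reference. Cy5 signals on the arrays labelled wild type were 34.6 to 50.9 for Krt20 and 32.6 to 59.8 for the Krt7 coding probe. Background-subtracted means there were 40.7 in Cy5 and 4596 in Cy3 for Krt20, against 1458 and 93730 for the Krt8 stop codon probe. By these Krt20 lay below Krt8, so the places of Krt20 and the Krt7 coding probe rest in part on that offset.

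**Figure D1:**
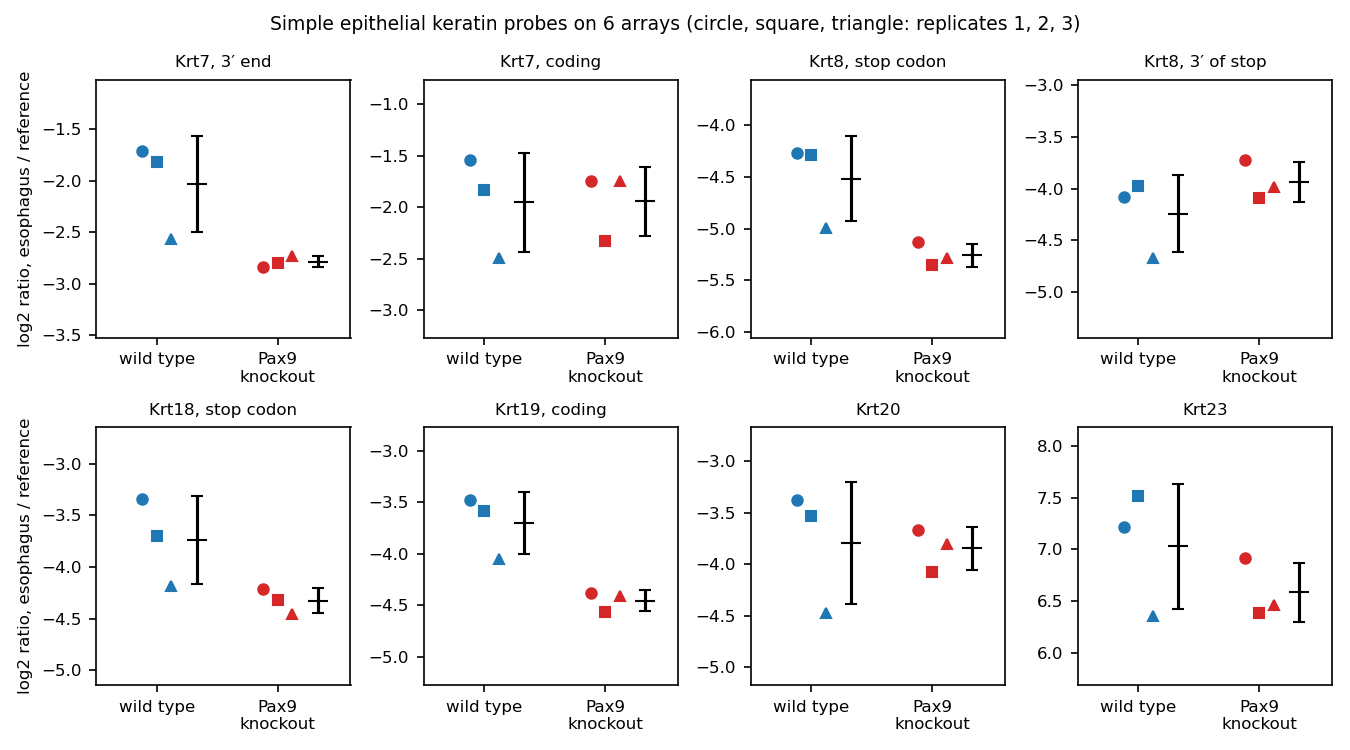
Log2 ratios of esophagus over reference for the 8 probes, 1 panel each, on the 3 arrays labelled wild type (blue) and the 3 labelled Pax9 knockout (red). Circles, squares and triangles are replicates 1, 2 and 3, black bars are the mean ± SD, and every panel spans the same height on a log2 scale; in 4 panels all red points lie below all blue ones.

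Krt8, the type II chain that pairs with Krt18, gave a different picture at each of its probes. At the stop codon the log2 ratios were -4.27, -4.29 and -4.99 on wild type replicates 1, 2 and 3 and -5.13, -5.35 and -5.29 on knockout replicates 1, 2 and 3. Every array labelled knockout was below every array labelled wild type, wild type replicate 3 being nearest to them. The means were -4.52 ± 0.41 and -5.26 ± 0.11 (SD, n = 3 each), a difference of -0.74 (SE 0.22, 95% interval -1.27 to -0.22) that missed the threshold in limma (adjusted p = 0.107).

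The Krt8 probe 3′ of the stop read -4.08, -3.97 and -4.67 on the arrays labelled wild type, against -3.72, -4.10 and -3.99 on those labelled knockout. The groups overlapped here, and their means of -4.24 ± 0.38 and -3.94 ± 0.19 (SD, n = 3 each) gave a difference of 0.31 (SE 0.22, 95% interval -0.22 to 0.83, limma adjusted p = 0.445). Averaged over both probes, the Krt8 difference was -0.22 (SE 0.22, limma adjusted p = 0.573). The differences at the Krt8 probes lay on opposite sides of 0. The 3′ probe differed by -0.011 in the deposited log ratio and by 0.73 with median centring (limma adjusted p = 0.119), so its direction was not settled.

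The difference between the Krt8 probes was itself clear of the replicate spread. The log2 ratio of the 3′ probe minus that of the stop codon probe was 0.18, 0.32 and 0.32 on the arrays labelled wild type, against 1.41, 1.26 and 1.30 on those labelled knockout. The groups lay far apart relative to their SDs of 0.076 and 0.081 (n = 3 each). In a limma fit over 6854 genes with at least 2 tested probes, chosen after the data were seen, the probe gap of Krt8 was wider by 1.05 (SE 0.15, adjusted p = 0.0222) on the arrays labelled knockout, and 3.69% of such probe pairs passed. An exact permutation test over the arrays gave p = 0.1, two-sided, the smallest that 3 against 3 arrays allow. With the deposited log ratio the widening was 0.63 and did not pass (limma adjusted p = 0.228). The call was also lost without wild type replicate 1 (0.0792) or 2 (0.0672) and without knockout replicate 1 (0.0892) or 3 (0.135), given as limma adjusted p, at a widening of 1.01 to 1.07.

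The single channels show where the Krt8 probes parted. Background-subtracted Cy5 signals of the stop codon probe were 1301, 1302 and 1771 on the arrays labelled wild type, against 773, 952 and 1034 on those labelled knockout. Those of the 3′ probe were 1487, 1663 and 2590 against 3773, 3815 and 4026. Before normalization, then, the Cy5 signals separated the groups downward at one probe and upward at the other, while over all tested probes the Cy5 signals of the groups did not overlap in 28.1%. In normalized Cy5 (log2) the groups overlapped at the 3′ probe, with 11.87, 11.98 and 11.30 against 12.43, 11.95 and 12.02. Normalized Cy5 alone gave differences of -1.13 (adjusted p = 0.0209) for the stop codon probe and 0.42 (adjusted p = 0.213) for the 3′ probe in limma.

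The common reference also moved at the stop codon probe. Its Cy3 signals there were 100050, 97277 and 83864 on the arrays labelled wild type, against 58151, 68418 and 68590 on those labelled knockout, although the labels give 1 reference RNA for all arrays (difference in normalized Cy3 -0.39, limma adjusted p = 0.00303, where 51.6% of all probes passed). At the 3′ probe the Cy3 signals were 98886, 97335 and 94568 against 86644, 93593 and 88543. In normalized Cy3 the gap between the Krt8 probes widened by 0.50 (limma adjusted p = 0.00445), in the same direction as the ratio, and 46% of probe pairs passed in Cy3. In normalized Cy5 the gap widened by 1.55. A log2 ratio is Cy5 minus Cy3, so the Cy3 widening is subtracted from that of Cy5 and makes the ratio gap smaller. The cause of the Cy3 shift was not tested.

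**Figure D2:**
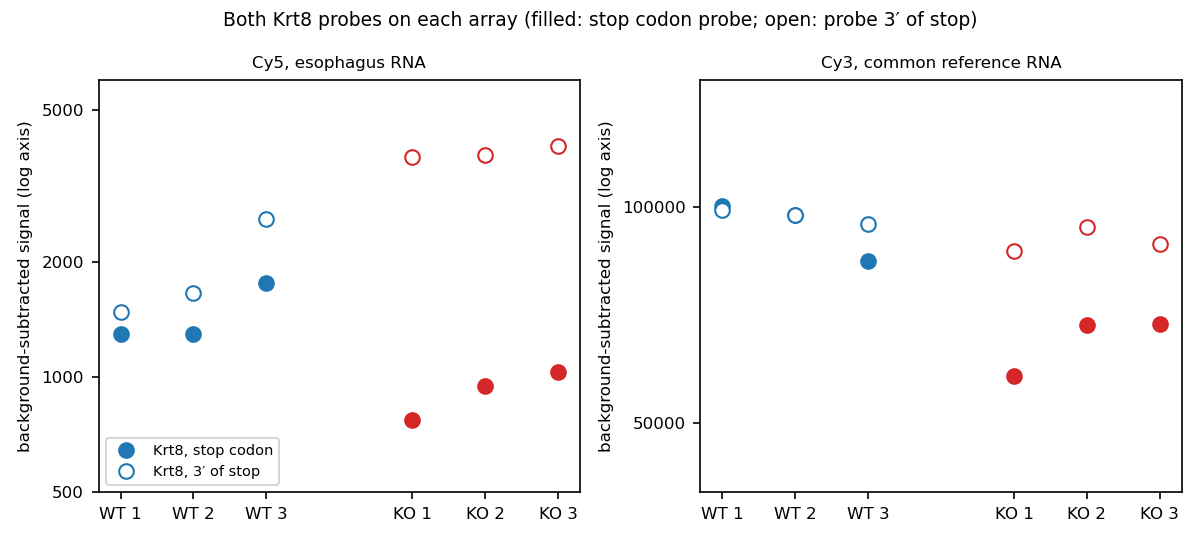
Background-subtracted signals of both Krt8 probes (log axes) on each array labelled wild type (WT, blue) and Pax9 knockout (KO, red), in Cy5 (left) and Cy3 (right). Filled points are the stop codon probe and open points the probe 3′ of the stop; on the KO arrays the open Cy5 points lie at 3773 to 4026 and the filled ones at 773 to 1034, and the filled Cy3 points are lower than on the WT arrays.

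Krt18, the type I partner of Krt8, read -3.34, -3.70 and -4.19 on the arrays labelled wild type, against -4.21, -4.32 and -4.45 on those labelled knockout. The groups did not overlap, but wild type replicate 3 and knockout replicate 1 were separated by less than the SD of the former's group. The means were -3.74 ± 0.43 and -4.33 ± 0.12 (SD, n = 3 each), with a difference of -0.59 (SE 0.23, 95% interval -1.13 to -0.05) with a limma adjusted p of 0.184, above the threshold, and it was -0.28 with median centring. Krt18 Cy5 signals of 5111, 4008 and 6596 against 3002, 5149 and 4356, before normalization, overlapped between the groups. In normalized Cy5 (log2) the Krt18 values of 13.43, 13.14 and 12.59 against 12.11, 12.32 and 12.07 did not overlap. Their difference was -0.89 (limma adjusted p = 0.03, where 29.3% of all tested probes passed). Its Cy3 signals were 168804, 169166 and 155478 against 97967, 137547 and 125775, all lower on the arrays labelled knockout.

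Krt7, a type II keratin of ducts and glands, was lower on all arrays labelled knockout at its 3′ end probe. There the log2 ratios were -1.71, -1.82 and -2.56 against -2.83, -2.80 and -2.73, with means of -2.03 ± 0.46 and -2.79 ± 0.05 (SD, n = 3 each). The difference of -0.76 (SE 0.24, 95% interval -1.32 to -0.20) missed the threshold in limma (adjusted p = 0.118). The background-subtracted Cy5 signals behind it, 382, 402 and 562 against 213, 306 and 357, also separated the groups.

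At the Krt7 coding probe the ratios were -1.54, -1.83 and -2.49 on the arrays labelled wild type, against -1.75, -2.33 and -1.75 on those labelled knockout, and the groups overlapped. The difference was 0.010 (SE 0.28, 95% interval -0.66 to 0.68, limma adjusted p = 0.987), and its sign turned with Cy5 alone (-0.29). This probe was dim, with Cy5 signals of 32.6 to 59.8 on the arrays labelled wild type and 23.9 to 59.9 on those labelled knockout. Averaged over both probes, the Krt7 difference was -0.37 (SE 0.25, limma adjusted p = 0.395).

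The coding minus the 3′ end ratio of Krt7 was 0.17, -0.012 and 0.074 on the arrays labelled wild type, against 1.08, 0.47 and 0.98 on those labelled knockout. These gaps did not overlap, and their mean was wider by 0.77 (SE 0.20) on the arrays labelled knockout. The change missed the threshold in the fit over probe pairs (limma adjusted p = 0.0859), passed it in Cy5 alone (0.65, limma adjusted p = 0.0342, where 31.7% of pairs passed), and gave the same exact permutation p = 0.1. These are 2 comparisons of probes within a gene, and adjusted over both the exact p stayed at 0.1. In Cy3 the change was in the opposite direction, at 0.11 as 3′ end minus coding (limma adjusted p = 0.508).

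Krt19, a type I keratin without a tail domain that marks ducts and simple epithelia, had the smallest p of the 8 probes. Its log2 ratios were -3.48, -3.58 and -4.05 on the arrays labelled wild type, against -4.38, -4.56 and -4.41 on those labelled knockout, with no overlap. The means of -3.70 ± 0.30 and -4.45 ± 0.10 (SD, n = 3 each) differed by -0.75 (SE 0.19, 95% interval -1.19 to -0.31), which stayed above the threshold (limma adjusted p = 0.0695). Its Cy5 signals were 413, 430 and 730 against 246, 388 and 321, all lower on the arrays labelled knockout. Cy3 fell too, from 24774, 24754 and 21188 to 14923, 20418 and 15837 (difference in normalized Cy3 -0.29, limma adjusted p = 0.0399).

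Krt20, a type I keratin of intestinal and gastric surface cells and of Merkel cells, was dim in esophagus RNA. Its Cy5 signals were 34.6, 36.6 and 50.9 on the arrays labelled wild type, against 27.8, 25.4 and 57.2 on those labelled knockout. The log2 ratios of -3.37, -3.54 and -4.47 against -3.67, -4.07 and -3.81 overlapped. The difference was -0.054 (SE 0.30, 95% interval -0.76 to 0.65, limma adjusted p = 0.934), and it was 0.13 in the deposited log ratio and 0.18 with median centring. At these signals neither direction could be told for Krt20.

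Krt23 was bright in esophagus RNA on every array. Its Cy5 signals were 53036, 76153 and 171386 on the arrays labelled wild type, against 138536, 114679 and 213412 on those labelled knockout. The log2 ratios were 7.22, 7.52 and 6.35 against 6.91, 6.39 and 6.46, and the groups overlapped, with wild type replicate 3 the lowest of all 6. The means of 7.03 ± 0.61 and 6.59 ± 0.29 (SD, n = 3 each) differed by -0.44 (SE 0.32, 95% interval -1.19 to 0.30, limma adjusted p = 0.437), and the sign turned with Cy5 alone (0.12) and with median centring (0.0076). Cy3 signals of the Krt23 probe were 1362, 1467 and 2763 against 1940, 1954 and 3033, highest in each group on the array where Cy5 was highest.

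Counted together, 0 of the 8 probes passed the threshold in limma, against 4.18% of all tested probes (1274 of 30505), 2.39% higher and 1.78% lower. It was also 0 of the 8 with the replicate number as a block, where 7.39% of probes passed, with the deposited log ratio (2.38%) and with median centring (0.456%). Groups did not overlap in 4 of the 8, all of them lower on the arrays labelled knockout, against 14.9% of all tested probes in that direction and 30.5% in either. The 4 were the Krt8 stop codon, Krt7 3′ end, Krt18 and Krt19 probes, whose differences lay between -0.76 and -0.59. The median difference of the 8 probes was -0.52, beside -0.0027 over all tested probes. The members share the reference, the slides and, for Krt7 and Krt8, the gene, so they are not 8 independent observations.

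Both channels and 1 array bear on these counts. With normalized Cy5 alone, 4 of the 8 probes passed in limma, all lower on the arrays labelled knockout: the Krt8 stop codon (-1.13), Krt19 (-1.04), Krt7 3′ end (-0.94) and Krt18 (-0.89) probes, at adjusted p of 0.0161 to 0.0406. In that channel 29.3% of all tested probes passed, 15.4% as lower on the arrays labelled knockout. Raw Cy3 signals were lower on every array labelled knockout for 7 of the 8 probes, all but Krt23, as they were for 43.5% of all tested probes. Wild type replicate 3 had the lowest ratio of its group at all 8 probes and the highest median Cy5 signal of the 6 arrays (159, against 56 to 133). Without it the Krt7 3′ end, Krt8 stop codon and Krt19 probes passed in limma, at differences of -1.02, -0.98 and -0.92 (adjusted p = 0.0305, 0.0365 and 0.041), where 3.63% of probes did. At these 3 probes it lay nearest to the arrays labelled knockout, so leaving it out had to widen the difference and narrow the spread. With any other single array left out, 0 of the 8 probes passed. The same 3 probes passed with array weights (adjusted p of 0.0257 to 0.0371, where 10.9% of probes did). Those weights were estimated by limma from these same data and are no separate measure of quality.

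**Figure D3:**
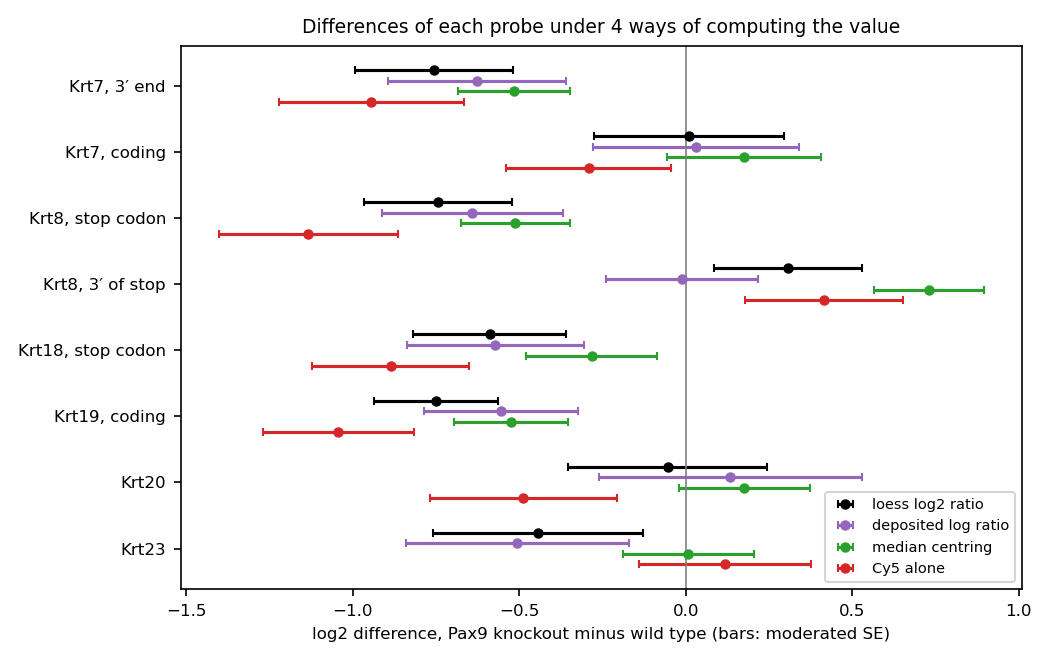
Log2 difference, arrays labelled Pax9 knockout minus wild type, of each probe with its moderated SE (bars) under 4 ways of computing the value: loess-normalized ratio (black), deposited log ratio (purple), median-centred ratio (green) and normalized Cy5 alone (red). The Krt7 3′ end, Krt8 stop codon, Krt18 and Krt19 probes lie below 0 in all 4, while the other 4 probes lie on both sides of it.

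Other keratins were read at 1 probe a gene, in lists chosen by the epithelial layer they are known for. Of 33 tested genes 5 rose and 1 fell, where 4.84% of all genes passed, and their median difference was -0.16. None of the 3 basal keratins passed, with Krt14 at 0.34 (limma adjusted p = 0.51) and at -1.30 with Cy5 alone, so its direction flips. Neither esophageal upper-layer keratin passed, with Krt13 at -0.34 (limma adjusted p = 0.399) and at 0.031 in the deposited log ratio. Of 7 epidermal upper-layer keratins Krt1 fell, by 5.28 (limma adjusted p = 0.00883), at its brighter probe, while its other probe read -0.031 (adjusted p = 0.952). Krt79, of the hair canal, rose by 1.91 among 6 tested (limma adjusted p = 0.0468), but read 1.03 in the deposited log ratio and 1.57 with median centring and passed in neither (adjusted p = 0.188 and 0.0993). Of 13 inner root sheath and hard keratins 4 rose: Krt35 by 3.74, Krt36 by 2.01, Krt32 by 2.71, and Krt33a (limma adjusted p of 0.0038 to 0.0368). Krt33a was not well above background on any array labelled wild type, and in Cy5 alone it was at least 3.3-fold higher on those labelled knockout. Its ratio difference was 1.65, and with median centring it was 0.91 and did not pass (limma adjusted p = 0.166). Krt32 read 0.85 and did not pass in the deposited log ratio. The Cy3 signals of Krt1 (3886 to 3946 against 242 to 294) and Krt32 (27.7 to 64.6 against 775 to 1141) lay on the same side as their Cy5 signals. With Cy5 alone Krt1 differed by -8.88 and Krt32 by 6.01, and the ratio subtracts the Cy3 difference from these. The cause of the Cy3 shifts was not tested. Of these calls, Krt1 was lost without wild type replicate 1 or knockout replicate 3 (limma adjusted p = 0.0558 and 0.0545), and Krt36 without knockout replicate 3 (0.0545). Krt33a was lost without wild type replicate 1 or 2 or without knockout replicate 3 (0.0505 to 0.065). Krt79 was lost with each of the 6 arrays left out in turn (0.0502 to 0.169), and Krt32 with each except wild type replicate 2 (0.0602 to 0.143). In the remaining class Krt90 differed by 0.37 (limma adjusted p = 0.24) and by -0.17 in the deposited log ratio, and Krt12 by -0.30 (limma adjusted p = 0.577).

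**Figure D4:**
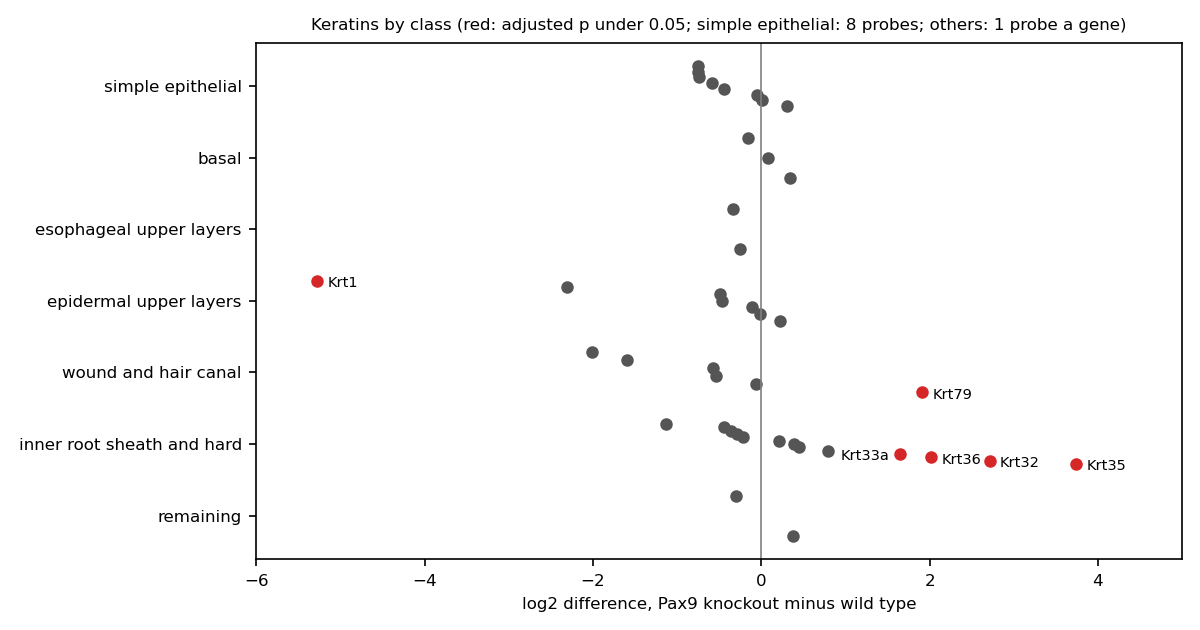
Log2 difference, arrays labelled Pax9 knockout minus wild type, of the 8 simple epithelial keratin probes and of 33 other tested keratins at 1 probe each, by class; points are spread vertically for legibility and red marks an adjusted p under 0.05. The simple epithelial probes lie between -0.76 and 0.31 with none in red, whereas red points in other classes run from Krt1 at -5.28 to Krt35 at 3.74.

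Genes of columnar and glandular epithelium, in which simple keratins are normally made, were listed for comparison. Of 36 listed genes 25 were tested, 0 rose, 2 fell and 23 did not pass, where 4.84% of all genes passed. The median difference was 0.085, beside 0.014 over all genes. Foxa3, a forkhead factor of endoderm, fell by 1.39 (limma adjusted p = 0.00983), and no array labelled knockout had it well above background. In Cy5 alone it was at least 2.93-fold lower there. Its call was lost without wild type replicate 1 or knockout replicate 3 (limma adjusted p = 0.0578 and 0.065) and with median centring (-1.08, 0.0612). The 11 untested genes included Cdx1, Cdx2, Muc2, Tff2 and Cldn18, named after their values were seen, which were not well above background on all 3 arrays of either group.

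The list of keratin linkers, binding partners and turnover is made up mostly of genes that hold the filaments to desmosomes, bind Krt8 and Krt18 or clear them. It also holds Vim, Des and Nes, which are other intermediate filament genes. All 32 were tested in limma, and 0 passed, where 4.84% of all genes did. An unadjusted p under 0.05 was found for 2 of them, and for 24.7% of all genes. The smallest p was that of Nes, an intermediate filament gene of progenitor cells, at 0.57 (SE 0.15, adjusted p = 0.0815). The median difference was -0.074.

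Cells that carry simple keratins were looked for by marker lists, beside which 4.84% of all genes passed and the median difference over all genes was 0.014. Of gastric markers 7 of 12 were tested and 1 passed, the proton pump subunit Atp4b, higher by 0.81 (limma adjusted p = 0.0489). Its Cy5 signals were 19.1 to 39.0 on the arrays labelled wild type and 154 to 219 on those labelled knockout. Its Cy3 signals rose too, from 34.6 to 45.2 up to 140 to 155. The other subunit of that pump, Atp4a, differed by -0.21 (limma adjusted p = 0.424), and 4 of the 7 gastric differences were below 0. The median difference of the gastric list was -0.21, its summed Cy5 was 748 to 2330 on the arrays labelled wild type and 916 to 1170 on those labelled knockout, and its markers Gkn1, Tff2, Gif and Cldn18 were not tested. Salivary and mucous gland markers had 5 of 9 tested and 1 past, the water channel Aqp5, which fell by 2.71 (limma adjusted p = 0.00755), with a median of 0.054 and sums of 1430 to 2420 and 1270 to 3740. Merkel and neuroendocrine markers had 6 of 8 tested and 1 past, the granule protein Chga, which fell by 2.49 (limma adjusted p = 0.0327), with a median of 0.27 and sums of 1290 to 4350 and 817 to 1760. Airway markers had 6 of 8 tested and 1 past, the secretoglobin Scgb3a2, which fell by 1.85 (limma adjusted p = 0.0121). Its Cy5 signals of 363 to 993 and 435 to 650 overlapped, while Cy3 read 83.4 to 94.6 and 331 to 332. Airway sums were 24700 to 134000 and 38900 to 72400, and the median was 0.31. Mesothelial markers had 5 of 7 tested and 1 past, Bnc1, which rose by 0.81 (limma adjusted p = 0.0363). Their sums were 1150 to 2440 and 2800 to 3990, but 3 of the 5 differences were below 0, with a median of -0.10. Of 2 thyroid markers tested 0 passed, with a median of -0.35 and sums of 47.8 to 143 and 30.6 to 57.6. Marker genes were not followed through the alternatives, and the part of any of these cells in the keratin values was not tested.

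Among the simple keratins, Krt7 at its 3′ end, Krt8 at its stop codon, Krt18 and Krt19 had like profiles over the 6 arrays. At these probes Pearson's r of log2 ratios was 0.97 between Krt7 and Krt19, 0.95 between Krt7 and Krt18 and 0.94 between Krt18 and Krt19, across arrays that share slides and reference. All of them separated the groups in the same direction, so r between them in part restates that split. Such an r was not theirs alone, at 0.94 between the Krt7 coding probe and Krt20. Krt23 gave 0.87 with the Krt8 stop codon probe. The Krt7 coding probe gave only 0.50 with Krt18 and 0.40 with Krt19. For the Krt7 3′ end probe, Krt19 ranked 77th of 16843 genes in likeness. For the pair Krt8 and Krt18 the likeness depended on the Krt8 probe. Pearson's r with Krt18 was 0.96 at the stop codon probe, which also gave 0.98 with the Krt7 3′ end probe and 0.99 with Krt19. At the brighter 3′ probe r with Krt18 was 0.044, and Krt18 ranked 7835th of 16843 genes. Between the Krt8 probes themselves r was 0.0077.

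The 3 genes most like each keratin by Pearson's r over the 6 arrays are given as a description. They were Tex21, Ankrd54 and H2aw for Krt7, Rps19, Coro2b and Zmat4 for Krt8, and Ggnbp1, Lat and Zfp146 for Krt18. For Krt19 they were Tepsin, Slc17a2 and Plaur, for Krt20 Rsl24d1, Ikzf1 and Asic1, and for Krt23 Sdr42e1, Cxcl5 and Arid5b. With 6 arrays, between 217 and 677 genes had an r above 0.9 with any one of these keratins.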

How the data were processed

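Each deposited scanner file gives the linear intensity of 45018 spots. The software was Agilent Feature Extraction, version 10.7.3.1 per the file headers and 9.1 per the submitters' processing notes. They also hold the background-subtracted signal of each channel and the log10 ratio deposited by the authors. The deposited series matrix holds log2 values, which correlated at -0.993 to -0.996 with that ratio over probes, so its sign was turned. How it was centred is not stated in the sources used.

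Background was corrected with normexp (offset 50) and arrays were loess-normalized, with weight 0 for control spots. Spots marked as outliers by the scanner software (55 to 164 per array) were left out, and spots of a probe averaged. No spot was saturated. Per array, 67.3% to 77.3% of probes had Cy5 well above background. Those that had it on every array of either group were tested with limma 3.58.1 in R 4.3.3 (lmFit, eBayes, two-sided), adjusted by Benjamini-Hochberg over 30505 probes, threshold 0.05. The number of arrays limits the precision. The procedure was tested on simulated data with independent noise and no effect of slide, scan or reference. That simulation cannot show how the fit behaves when such effects coincide with the groups, as they may here.

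Cy5 alone means after loess and Aquantile. Names were updated through RefSeq (GRCm38.p6) by accession (26918 probes) or name (5899), and 8357 kept theirs. A listed gene was read at its tested probe of highest mean intensity. Named from the lists were the genes past the threshold (at most 4 a list) or that of smallest p; marker genes past it were named after their values were seen. A gene that this rule takes is not reported here. Where no array of a group had a probe above background, "at least" gives, in Cy5 alone, the bright group's mean against whichever is higher on each dim array, the signal of that probe or the lowest one above background. With no swapped dyes a dye bias may enter.

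Members and lists were chosen with earlier results of these data known. Same-numbered arrays deviated together (r = 0.149, 0.512 and 0.333 over genes), though wild type 1 with knockout 3 gave 0.156, and numbers 1, 2 and 3 also lay at positions 2, 3 and 4 of each slide. Same numbers were taken as pairs only in the replicate block and where a pair was left out. The main fit used the group alone. Alternatives covered background, source of the ratio, normalization, channel, filter, variance prior, array weights, the replicate block, probe averaging and left-out arrays.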

Additional observations from a re-analysis of the deposited data

How the results depend on the processing

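With the replicate number as a block no simple keratin probe changed its call (Krt19 adjusted p = 0.0596, limma), while the count over all probes went from 1274 to 2254 (7.39%). That count was 727 with the deposited log ratio, 714 with the matrix values, 139 with median centring, 8936 with Cy5 alone, 706 with both channels above background and 3311 with array weights. It was 38 to 1107 without 1 array and 0 to 392 without a same-numbered pair. The 0 came without replicate 1, where 4718 probes had an unadjusted p under 0.05. Simple keratin probes past the threshold went from 0 to 4 with Cy5 alone, 3 with array weights, and 0 to 3 over left-out arrays. Listed genes past it went from 8 to 5 with median centring, 31 with Cy5 alone, 16 with array weights and 0 to 9 over left-out arrays.

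The Krt8 probe gap lost its call in limma with the deposited log ratio (0.63, adjusted p = 0.228) and the matrix values (0.63, adjusted p = 0.229). Without single arrays it was 1.01 to 1.09. The Krt7 gap passed with Cy5 alone (-0.65 as 3′ end minus coding).

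Signs turned for the Krt7 coding probe (-0.074 with no background correction, -0.29 with Cy5 alone, -0.031 with array weights, -0.35 to 0.27 over left-out arrays), the Krt8 3′ probe (-0.011 with deposited ratio or matrix), Krt20 (0.13 with deposited ratio or matrix, 0.18 with median centring, -0.41 to 0.19 over left-out arrays) and Krt23 (0.0076 with median centring, 0.12 with Cy5 alone). They also turned for Krt14 (-1.30, Cy5 alone), Krt13 (0.031 with deposited ratio or matrix, 0.11 with median centring) and Krt90 (-0.17 with deposited ratio or matrix, -0.32 with median centring). The causes were not tested. The Krt7 3′ end, Krt8 stop codon, Krt18 and Krt19 probes lay below 0 in all settings run, between -1.13 and -0.28. Since each group lay on 1 slide, no setting measures the spread between slides. Averaging over probes gives Krt7 and Krt8 1 value a gene, printed above and not counted here.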
